A study of Rattus norvegicus with 20 samples.

Results

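Transcript levels of 10 activity-dependent immediate early genes, namely Fos, Fosb, Junb, Egr1, Egr2, Egr3, Arc, Npas4, Nr4a1 and Dusp1, were examined in the hippocampus of 20 Gunn rat pups at postnatal day 6. The genes were picked by symbol. Each symbol matched 1 row among the 32883 genes listed, and all 10 passed the filter on low counts that left 15272 genes for testing. Gunn rats carry a loss-of-function allele of the liver enzyme that conjugates bilirubin, so homozygous jj pups are jaundiced and heterozygous pups, written Nj or Jj in the labels, are not. All pups carried at least 1 copy of that allele, and the heterozygotes served as the non-jaundiced group. Of the 4 groups of 5 pups, treated jj and treated Nj pups received LED phototherapy, which is used against jaundice of the newborn, beginning on day 4 and adding up to 12 h of light in periods of 3 h on and 3 h off. Untreated jj and untreated Nj pups received no light. All pups were killed with sodium pentobarbital on day 6, and polyA RNA of a hippocampal lobe was sequenced. The time between the last light period and tissue collection is not given in the sources used here.

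Immediate early genes are switched on within minutes of synaptic or growth factor input, without new protein synthesis, through transcription factors such as CREB and SRF that are already present and become phosphorylated. In the hippocampus they are widely read as a trace of recent neuronal firing. Fos, Fosb and Junb encode partners of the dimeric AP-1 transcription factor, and Egr1, Egr2 and Egr3 encode zinc-finger transcription factors. Npas4 encodes a neuron-specific transcription factor that responds to calcium entry, and Nr4a1 an orphan nuclear receptor. Arc encodes a protein that acts at synapses in the removal of AMPA receptors from the membrane, and Dusp1 a phosphatase that switches MAP kinases off.

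The start-site sequences of these genes are shown because CREB and SRF act through short promoter motifs, the CRE and the CArG box. RefSeq, in the GRCr8 rat build, gave a promoter window for 7 of the 10 genes, reaching from 250 bases before to 50 bases after the annotated start. Fos, Egr3 and Arc had no entry in the table used. In the windows below, printed 5′ to 3′ on the gene's strand, capitals mark the CRE, searched as TGACGTCA in full and as its core, TGACG or CGTCA, and the CArG box. The windows are those of Egr1 (chr18:26736828-26737127, plus strand), Egr2 (chr20:21054392-21054691, minus strand), Dusp1 (chr10:17184603-17184902, plus strand), Nr4a1 (chr7:134259888-134260187, plus strand) and Fosb (chr1:88089135-88089434, minus strand).
Egr1: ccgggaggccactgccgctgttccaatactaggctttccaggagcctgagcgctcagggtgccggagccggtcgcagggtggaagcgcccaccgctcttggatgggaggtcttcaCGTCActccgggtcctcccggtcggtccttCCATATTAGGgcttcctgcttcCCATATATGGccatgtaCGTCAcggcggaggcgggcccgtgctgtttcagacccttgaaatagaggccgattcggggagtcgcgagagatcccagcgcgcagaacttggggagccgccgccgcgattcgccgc
Egr2: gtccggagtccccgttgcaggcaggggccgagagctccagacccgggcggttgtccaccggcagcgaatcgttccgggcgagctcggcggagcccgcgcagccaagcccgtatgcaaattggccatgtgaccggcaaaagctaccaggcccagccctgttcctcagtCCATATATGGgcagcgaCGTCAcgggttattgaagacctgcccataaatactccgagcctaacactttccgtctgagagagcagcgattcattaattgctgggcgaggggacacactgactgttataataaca
Dusp1: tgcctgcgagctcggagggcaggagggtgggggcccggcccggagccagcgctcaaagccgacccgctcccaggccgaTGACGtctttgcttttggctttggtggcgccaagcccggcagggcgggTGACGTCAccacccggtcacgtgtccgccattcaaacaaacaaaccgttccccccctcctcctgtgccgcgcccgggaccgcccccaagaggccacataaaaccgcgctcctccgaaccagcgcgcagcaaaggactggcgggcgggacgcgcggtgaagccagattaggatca
Nr4a1: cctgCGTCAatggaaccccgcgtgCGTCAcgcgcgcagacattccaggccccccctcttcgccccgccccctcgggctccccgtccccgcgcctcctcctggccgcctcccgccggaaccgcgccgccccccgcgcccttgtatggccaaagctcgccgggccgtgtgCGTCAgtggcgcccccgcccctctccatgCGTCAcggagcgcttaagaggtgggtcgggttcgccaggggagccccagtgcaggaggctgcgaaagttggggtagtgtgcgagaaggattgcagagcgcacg
Fosb: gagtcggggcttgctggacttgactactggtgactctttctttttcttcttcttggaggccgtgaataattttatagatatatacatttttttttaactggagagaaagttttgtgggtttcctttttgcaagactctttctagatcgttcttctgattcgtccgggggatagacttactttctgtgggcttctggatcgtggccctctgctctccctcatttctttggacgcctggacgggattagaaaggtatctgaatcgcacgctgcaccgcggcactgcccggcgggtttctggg

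Positions are those of a motif's first base relative to the start. Egr1 held 2 CArG boxes, at -105 and -83, and 2 CRE cores, at -135 and -66. Egr2 also had a CArG box at -83 and a CRE core at -66. Dusp1 held the full CRE at -124, which contains a core on each strand, and a further core at -172. Nr4a1 held 4 CRE cores, at -246, -226, -82 and -53, and the EGR motif GCGNGGGCG, read on the other strand, at -73. Junb, whose window is not printed, held a CRE core at -155. Fosb and Npas4 held neither a CRE core nor a CArG box in this window. Both strands were searched. Among 33469 windows of the same length, 21.2% held a CRE core (5 of the 7 genes here), 1.83% a full CRE (1 of 7), 1.64% a CArG box (2 of 7) and 4.98% the EGR motif (1 of 7). The AP-1 motif TGANTCA was also searched, and 7.33% of windows and 0 of the 7 genes held it. The TATA motif TATAAA was held by 14.2% of windows and by 2 of the 7, Fosb and Junb. A match describes the letters in a window and no binding was measured.

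Read totals ran from 19.3 to 25.7 M per library (M for mega) in treated jj, 19.5 to 23.1 M in treated Nj, 16.9 to 22.1 M in untreated jj and 19.1 to 27.1 M in untreated Nj pups. Values below are counts per M reads (CPM) on TMM-scaled library sizes. Sample titles begin with J18 in both treated groups, J17 in untreated jj, and J13, J14 or J15 in untreated Nj pups, and what the prefixes mean is not stated. Phototherapy and title prefix therefore cannot be told apart, and neither can genotype and prefix in untreated pups. The genotype average and the interaction include those untreated pups, while treated jj against treated Nj pups lies within 1 prefix. None of the listed markers of general neurons, dentate granule neurons or CA pyramidal neurons that were in the table was at 0 in all 20 libraries. The same held for the markers of every other cell type listed, so this does not tell which tissue was sampled. Ttr, the leading choroid plexus transcript, exceeded 1000 CPM in 7 libraries: 3 treated jj, 2 treated Nj, 1 untreated jj and 1 untreated Nj. In whole tissue, fewer cells of a type and less RNA per cell cannot be told apart. P-values measure the spread between pups, and intervals for the counts of single libraries are not given.

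**Figure D1:**
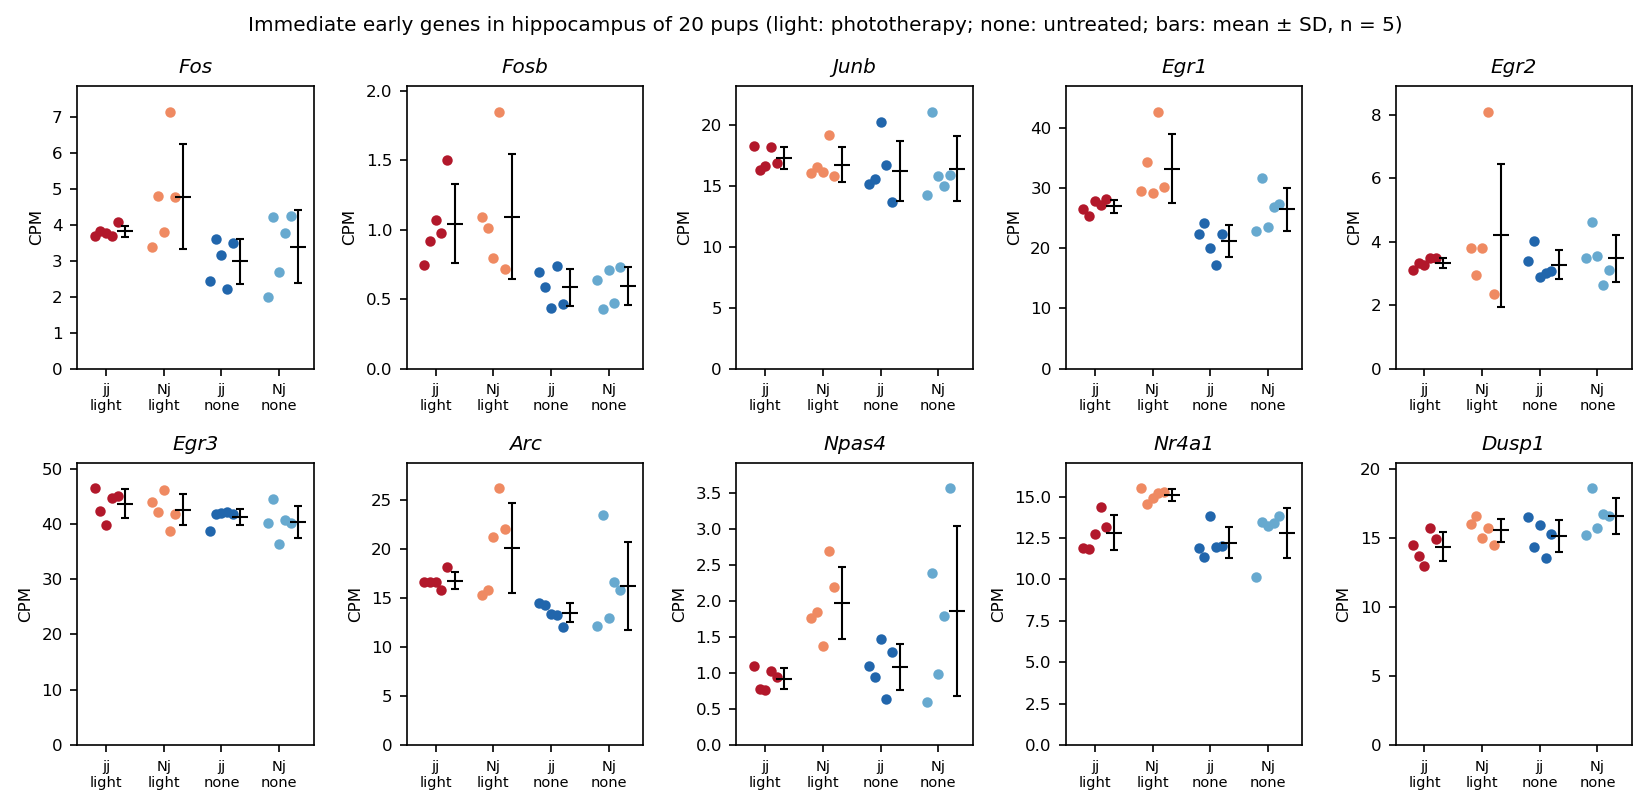
Level of each of the 10 immediate early genes in every library (points, CPM, each panel with its own axis from 0) with mean ± SD to the right of each group of 5 pups. Fosb and Egr1 lie higher under light in both genotypes, Npas4 lies lower in treated jj than in treated Nj pups, and treated Nj pup 4 stands above the rest for Fos, Egr1 and Egr2.

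Under phototherapy, Fosb and Egr1 rose and none of the other 8 genes passed the test. Averaged over both genotypes, Fosb was 1.80-fold (95% interval 1.36 to 2.38) and Egr1 1.26-fold (1.14 to 1.40) of its untreated level. Without the 7 libraries rich in Ttr neither passed (adjusted p = 0.0904 for Fosb and 0.150 for Egr1), and calls among all genes fell from 1541 to 424. Treated pups differ from untreated ones in title prefix as well as light. Of all genes tested, 10.1% passed in the same comparison (edgeR quasi-likelihood test, adjusted p under 0.05), against these 2 of 10. The unadjusted p was under 0.05 for 5 of 10, Fos, Fosb, Egr1, Arc and Nr4a1, against 24.6% of all genes. Estimates were positive for 8 of 10 genes, against 50.35% of all genes, and negative for Npas4 and Dusp1. The median log2 fold change was 0.15 against 0.00 for all genes. Most pairs of the 10 genes varied together among pups, so their signs are not separate observations.

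Among the AP-1 genes, Fosb (ENSRNOG00000046667) had the largest estimate of the 10. It stood at 0.744, 0.920, 1.07, 0.977 and 1.501 CPM in treated jj pups, against 0.695, 0.589, 0.435, 0.738 and 0.461 CPM in untreated jj pups. It stood at 1.09, 1.01, 0.796, 1.85 and 0.717 CPM in treated Nj pups, against 0.634, 0.431, 0.707, 0.472 and 0.731 CPM in untreated Nj pups. The jj ranges lay apart by a narrow margin, and the Nj ranges overlapped through treated pup 5. These levels rest on few reads, 19 to 32 per library in treated jj, 15 to 37 in treated Nj, 8 to 14 in untreated jj and 9 to 17 in untreated Nj pups. Averaged over genotypes the log2 fold change was 0.85 ± 0.20 (SE; edgeR, adjusted p = 0.00831). Within a genotype it was 0.83 in jj (adjusted p = 0.197) and 0.86 in Nj pups (adjusted p = 0.0757), neither past the threshold.

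Fos (ENSRNOG00000008015), the best known marker of recent firing, had 3.68, 3.82, 3.78, 3.70 and 4.08 CPM in treated jj pups, against 2.43, 3.59, 3.16, 2.21 and 3.50 CPM in untreated jj pups. It had 3.38, 4.80, 3.80, 7.15 and 4.78 CPM in treated Nj pups, against 1.98, 4.23, 2.69, 3.78 and 4.25 CPM in untreated Nj pups. The jj groups did not overlap, by a narrow margin (3.68 against 3.59 CPM), while the Nj groups did and treated Nj pup 4 stood far above the rest. Averaged over genotypes the log2 difference was 0.43 ± 0.14 (SE; edgeR, adjusted p = 0.0628), and DESeq2 gave an adjusted p of 0.0388. Junb (ENSRNOG00000042838), the AP-1 partner of the Jun family, averaged 17.2 ± 0.92 CPM in treated jj, 16.7 ± 1.41 in treated Nj, 16.2 ± 2.46 in untreated jj and 16.4 ± 2.69 in untreated Nj pups (SD, n = 5 each). Its log2 difference under light was 0.06, with a 95% interval of -0.09 to 0.21.

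Of the zinc-finger genes, Egr1 (ENSRNOG00000019422), a regulator of many late-response genes, had 26.5, 25.5, 27.9, 27.2 and 28.2 CPM in treated jj pups, against 22.4, 24.2, 20.1, 17.3 and 22.4 CPM in untreated jj pups. It had 29.7, 34.5, 29.2, 42.8 and 30.3 CPM in treated Nj pups, against 23.0, 31.7, 23.5, 27.0 and 27.4 CPM in untreated Nj pups. Each treated jj pup lay above every untreated jj pup, and among Nj pups only untreated pup 2 reached into the treated range. Averaged over genotypes the log2 fold change was 0.34 ± 0.07 (SE; edgeR, adjusted p = 0.00597). It was 0.35 in jj (adjusted p = 0.148) and 0.33 in Nj pups (adjusted p = 0.0762) when each was tested alone, and DESeq2 passed the Nj value (adjusted p = 0.0383).

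Egr2 (ENSRNOG00000000640), which also acts in myelinating glia of the peripheral nerve, had 3.10, 3.34, 3.27, 3.50 and 3.47 CPM in treated jj pups, against 3.38, 4.01, 2.88, 3.00 and 3.09 CPM in untreated jj pups. It had 3.80, 2.95, 3.80, 8.10 and 2.34 CPM in treated Nj pups, against 3.47, 4.62, 3.53, 2.62 and 3.09 CPM in untreated Nj pups. The groups overlapped, and 1 library, treated Nj pup 4, set the average estimate: the log2 difference was 0.15 over all libraries and -0.04 without that pup. Egr3 (ENSRNOG00000017828), which acts downstream of MAP kinase signalling, averaged 43.7 ± 2.65 CPM in treated jj, 42.5 ± 2.80 in treated Nj, 41.3 ± 1.45 in untreated jj and 40.4 ± 2.86 in untreated Nj pups (SD, n = 5 each). Its log2 difference under light was 0.08, with a 95% interval that ended at 0.16 (edgeR, adjusted p = 0.231).

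Arc (ENSRNOG00000043465), the effector among the 10, had 16.6, 16.6, 16.6, 15.8 and 18.2 CPM in treated jj pups, against 14.5, 14.3, 13.4, 13.2 and 12.0 CPM in untreated jj pups. It had 15.3, 15.8, 21.2, 26.2 and 22.04 CPM in treated Nj pups, against 12.2, 23.5, 13.0, 16.6 and 15.8 CPM in untreated Nj pups. The jj ranges lay apart, and the Nj ranges overlapped broadly. The log2 difference averaged over genotypes was 0.31 ± 0.11 (SE) with an adjusted p of 0.0692 in edgeR and 0.0302 in DESeq2. Arc passed in 3 of 20 edgeR fits that left out 1 library each, as did Fos, and most clearly without untreated Nj pup 2 (0.41, adjusted p = 0.00576). It also passed with untreated Nj pups of prefix J15 alone (0.37, adjusted p = 0.0127).

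Nr4a1 (ENSRNOG00000007607) had 11.9, 11.9, 12.8, 14.4 and 13.2 CPM in treated jj pups, against 11.9, 11.4, 13.8, 12.0 and 12.0 CPM in untreated jj pups. It had 15.5, 14.6, 14.9, 15.2 and 15.3 CPM in treated Nj pups, against 10.1, 13.5, 13.2, 13.4 and 13.8 CPM in untreated Nj pups. The Nj ranges lay apart and the jj ranges overlapped. The log2 difference was 0.24 in Nj pups (adjusted p = 0.102) and 0.07 in jj pups (adjusted p = 0.770). Dusp1 (ENSRNOG00000003977) averaged 14.4 ± 1.07 CPM in treated jj, 15.6 ± 0.849 in treated Nj, 15.2 ± 1.19 in untreated jj and 16.6 ± 1.29 in untreated Nj pups (SD, n = 5 each), with a log2 difference under light of -0.08 and a 95% interval of -0.19 to 0.02.

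Tested within 1 genotype, 0 of the 10 genes passed in either. In jj pups edgeR passed 0.164% of all genes, and 2 of the 10 genes, Fosb and Egr1, had an unadjusted p under 0.05, against 13.0% of all genes, and DESeq2 passed 0. In Nj pups edgeR passed 4.00% of all genes, 4 of the 10, Fos, Fosb, Egr1 and Nr4a1, had an unadjusted p under 0.05, against 18.1% of all genes, and DESeq2 passed 1, Egr1. The CPM ranges of treated and untreated jj pups lay apart for Fos, Fosb, Egr1 and Arc, which is 4 of 10 against 2.96% of all genes tested. The margin was narrow for Fos and Fosb. Those of Nj pups lay apart for Nr4a1, 1 of 10 against 6.46% of all genes. The 4 with jj ranges apart were higher in treated pups, as was Nr4a1 in Nj pups.

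**Figure D2:**
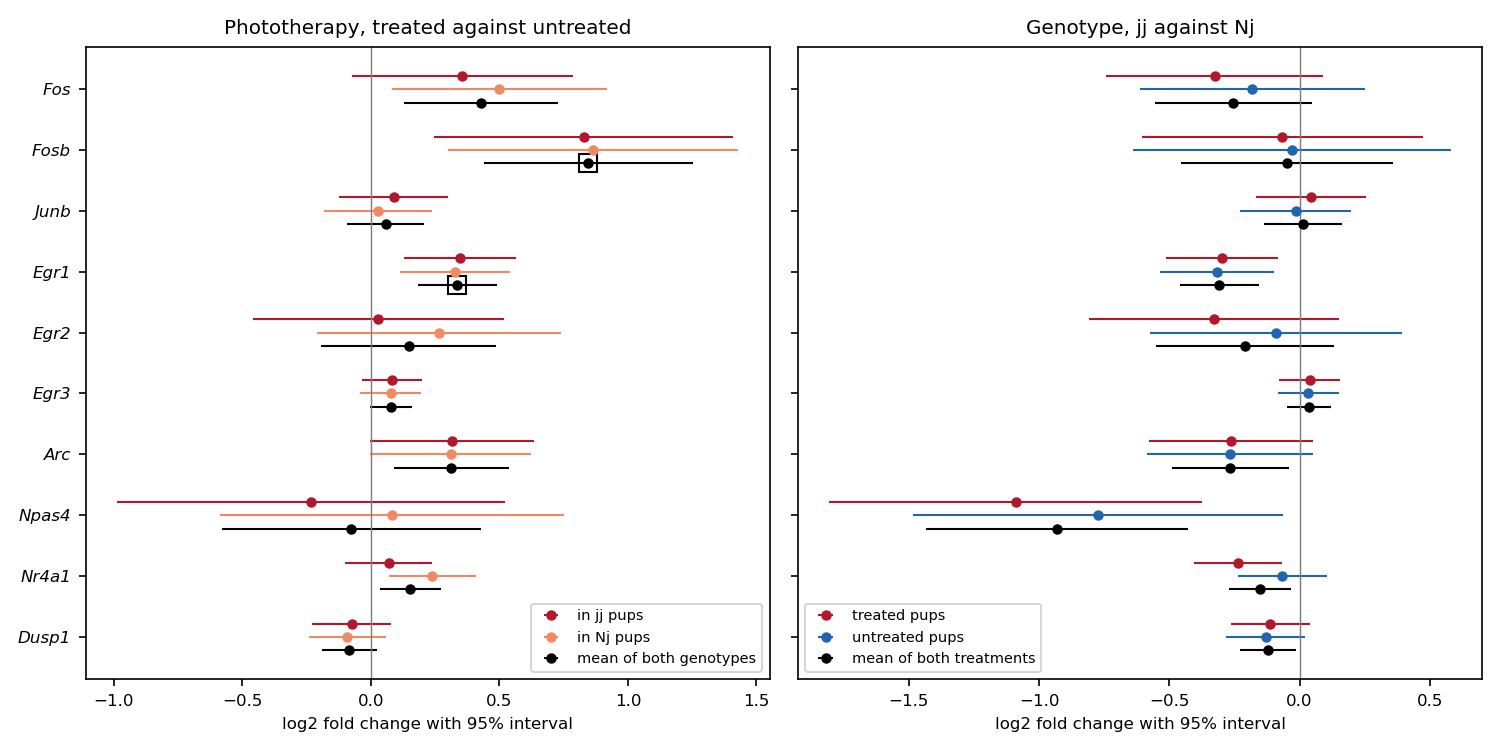
Log2 fold changes (points) with 95% intervals (lines) of the 10 genes for phototherapy (left, treated against untreated) and genotype (right, jj against Nj), within each level of the other factor and averaged. Squares mark an adjusted p under 0.05, reached by Fosb and Egr1 for phototherapy averaged over genotypes, and the Npas4 estimates for genotype lie lowest.

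The calls of Fosb and Egr1 were lost without the libraries rich in choroid plexus RNA, while the estimates averaged over genotypes kept their size. Both passed in all 20 fits that left out 1 library each, with log2 fold changes of 0.72 to 0.91 for Fosb and 0.29 to 0.38 for Egr1. Without the 7 libraries above 1000 CPM of Ttr the averaged values were 0.83 for Fosb (edgeR, adjusted p = 0.0904) and 0.32 for Egr1 (adjusted p = 0.150), so that 0 of the 10 passed. Within a genotype, Fosb then stood at log2 1.12 in Nj and 0.53 in jj pups, neither passing. With all libraries it was 0.86 in Nj and 0.83 in jj pups. Of the 7 libraries left out, 3 were treated jj pups. DESeq2 passed Egr1, Fos and Arc and gave Fosb no adjusted p.

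Some markers of several cell types passed for phototherapy too, averaged over genotypes, where 10.1% of all genes passed in edgeR. Of 8 general neuron markers 4 were higher, with summed levels of 7926 to 9102 CPM in treated jj, 8845 to 9274 in treated Nj, 6471 to 8596 in untreated jj and 7996 to 8854 in untreated Nj pups. Of 10 microglia markers 3 were higher, with sums of 161 to 188 CPM in treated jj, 149 to 177 in treated Nj, 142 to 171 in untreated jj and 142 to 155 in untreated Nj pups. Of 10 astrocyte markers 4 were higher and 1 lower, with sums of 2801 to 3042 CPM in treated jj, 2803 to 3055 in treated Nj, 2486 to 2882 in untreated jj and 2422 to 2995 in untreated Nj pups. Of 9 immature neuron markers tested 5 were lower, with sums of 7217 to 8060 CPM in treated jj, 7249 to 8515 in treated Nj, 7431 to 9028 in untreated jj and 8679 to 9455 in untreated Nj pups. None of the 9 choroid plexus markers tested passed, although each had a positive estimate (median log2 difference 0.71), with sums of 80.3 to 8271 CPM in treated jj, 34.0 to 4285 in treated Nj, 21.0 to 10330 in untreated jj and 19.6 to 4496 in untreated Nj pups. None of 8 meninges markers passed in edgeR and 2 in DESeq2, with 7 negative estimates and a median of -0.32. None of 7 red blood cell markers passed in edgeR and 1 in DESeq2. In edgeR 1 passed of 9 markers tested for endothelium and pericytes, 1 of 9 for oligodendrocytes, 1 of 7 for dentate granule neurons and 1 of 7 for CA pyramidal neurons. These shares are near that of all genes. Of 9 interneuron markers 4 were higher and 2 lower. No marker of these lists that was in the table was at 0 in all 20 libraries, and their part in the result was not tested.

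For genotype, which goes with title prefix in untreated pups and so touches the average as well, no gene of the 10 passed the test, and the lowest estimates belonged to Npas4. Averaged over treatments, Npas4 in jj pups was 0.52-fold of its level in Nj pups (95% interval 0.37 to 0.74) and Egr1 was 0.81-fold (0.73 to 0.90). Their adjusted p-values were both 0.408 (edgeR), although Egr1 ranked 13th and Npas4 28th by p among the 15272 genes. In this averaged comparison edgeR passed 0% of all genes and DESeq2 passed 0 genes. The unadjusted p was under 0.05 for 5 of the 10, Egr1, Npas4, Nr4a1, Arc and Dusp1, against 11.2% of all genes. Each of these 5 estimates was negative, and over the 10 genes 8 were negative, with a median log2 difference of -0.18 against 0.01 for all genes. Of all genes, 52.36% had a positive estimate. Beside this, the 9 choroid plexus markers tested each had a positive estimate, jj against Nj (median log2 difference 0.79, 0 passing). Without the 7 libraries rich in Ttr the estimates were -1.05 for Npas4 and -0.33 for Egr1, neither passing (edgeR, adjusted p = 0.9994 for each). The part of choroid plexus RNA in the genotype difference was not tested.

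Npas4 (ENSRNOG00000020009), which is known to shape inhibitory synapses on active neurons, stood at 1.097, 0.775, 0.766, 1.03 and 0.938 CPM in treated jj pups, against 1.77, 1.85, 1.37, 2.70 and 2.20 CPM in treated Nj pups. It stood at 1.09, 0.943, 1.47, 0.633 and 1.29 CPM in untreated jj pups, against 0.597, 2.39, 0.989, 1.78 and 3.57 CPM in untreated Nj pups. Under light the genotypes did not overlap, and without light untreated Nj pups spread across the whole jj range and beyond. The log2 difference was -1.09 ± 0.35 (SE) in treated pups (95% interval -1.81 to -0.37; edgeR, adjusted p = 0.724) and -0.77 ± 0.34 in untreated pups (-1.48 to -0.06; adjusted p = 0.775). The untreated value hung on 1 pup, untreated Nj pup 5, without which it was -0.40. Npas4 averaged 0.921 ± 0.149 CPM in treated jj, 1.98 ± 0.499 in treated Nj, 1.09 ± 0.322 in untreated jj and 1.86 ± 1.18 in untreated Nj pups (SD, n = 5 each). Both jj groups thus had lower means than both Nj groups, and groups adjacent in level overlapped.

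Egr1 had similar genotype differences in treated and untreated pups, at log2 -0.30 ± 0.10 (SE) under light and -0.32 ± 0.10 without (edgeR, adjusted p = 0.724 under light and 0.775 without). Without treated Nj pup 4 the value under light was -0.19. Its means were 27.1 ± 1.08 CPM in treated jj, 33.3 ± 5.71 in treated Nj, 21.3 ± 2.67 in untreated jj and 26.5 ± 3.53 in untreated Nj pups (SD, n = 5 each). Treated jj pups, at 25.5 to 28.2 CPM, thus lay inside the range of untreated Nj pups, 23.0 to 31.7 CPM. In treated pups Arc was at -0.26, Fos at -0.33 and Nr4a1 at -0.24, and in untreated pups Arc was at -0.27, Fos at -0.18 and Nr4a1 at -0.07. Fosb, Junb, Egr3 and Dusp1 lay within 0.13 of 0 in both comparisons, and Egr2 was at -0.33 in treated and -0.09 in untreated pups.

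Split by treatment, edgeR passed 0% of all genes and 0 of the 10 for genotype in treated pups, and the same in untreated pups. DESeq2 passed 0 of the 10 in each. An unadjusted p under 0.05 was reached by Egr1, Npas4 and Nr4a1 in treated pups (3 of 10, against 6.62% of all genes) and by Egr1 and Npas4 in untreated pups (2 of 10, against 6.36%). The CPM ranges of treated jj and treated Nj pups lay apart for Egr1, Npas4 and Nr4a1, each lower in jj, which is 3 of 10 against 1.20% of all genes. In untreated pups 0 of the 10 had ranges apart, against 1.00% of all genes. The comparison among treated pups shares its libraries with the comparisons of light within each genotype, so these counts are not independent of each other.

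Whether light acted differently in jj and Nj pups was tested as an interaction, which title prefix also touches through the untreated pups. The difference of the log2 fold changes, jj less Nj, ran from -0.32 for Npas4 to 0.06 for Junb, and was -0.04 for Fosb (95% interval -0.86 to 0.78) and 0.02 for Egr1 (-0.29 to 0.32). In edgeR 0 of the 10 passed, 0% of all genes passed, and 0 of the 10 had an unadjusted p under 0.05, against 3.41% of all genes. DESeq2 passed 0 genes.

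Single pups differed more in most of these genes than in the median gene. The biological coefficient of variation, the spread between pups beyond counting noise as edgeR fits it, was 34.4% for Npas4, 24.5% for Egr2, 22.7% for Fosb, 21.4% for Fos and 17.02% for Arc, against a median of 9.71% over all genes tested. It was 12.1% for both Egr1 and Junb, 9.66% for Nr4a1, 8.90% for Dusp1 and 6.65% for Egr3. Among 500 genes of similar level, the within-group SD of log2 CPM stood at percentile 92.4 for Arc, 89.6 for Npas4, 89.0 for Egr1, 85.0 for Egr2 and 84.0 for Fos. Dusp1, at percentile 12.6, Nr4a1, at 25.5, and Fosb, at 26.5, were steadier than most genes of their level.

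Within groups the spread was uneven. Fos had a coefficient of variation across pups of 4.22% in treated jj, against 30.5% in treated Nj, 21.0% in untreated jj and 29.9% in untreated Nj pups. Egr1 had 4.01% in treated jj, against 17.1% in treated Nj, 12.5% in untreated jj and 13.3% in untreated Nj pups. Arc had 5.17% in treated jj and 7.17% in untreated jj pups, against 22.7% in treated Nj and 27.6% in untreated Nj pups. Treated jj pups thus had the smallest value of the 4 groups for these 3 genes, and also for Junb, Egr2 and Npas4. Fosb, Egr3, Nr4a1 and Dusp1 had their smallest value in another group. Reads per library in treated jj pups were 72 to 94 for Fos, 526 to 677 for Egr1 and 307 to 424 for Arc. They were 64 to 79 for Egr2 and 15 to 28 for Npas4. Counting noise is part of these coefficients and was not removed. At such read numbers, counting noise alone can give coefficients as large as those of treated jj pups. The low values therefore do not show that treated jj pups were more alike. No test of the spread was made, and the share of all genes with their smallest value in treated jj pups was not computed.

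Most pairs of the genes varied together among pups of the same group, though Fosb followed few of the others. With group means removed, 35 of the 45 pairs of genes had a positive Pearson correlation over the 20 libraries, with a median r of 0.34. These values were not computed for pairs of other genes, so no background stands beside them. The strongest were Fos with Egr1 (r = 0.83, permutation p = 0.00031, adjusted over 45 pairs p = 0.0126; Spearman rho = 0.798, adjusted p = 0.0342) and Fos with Npas4 (r = 0.80, permutation p = 0.00056, adjusted p = 0.0126; rho = 0.756, adjusted p = 0.0549). Without the 2 libraries farthest from the median of Fos, r was 0.73 for Egr1 and 0.68 for Npas4, with an adjusted permutation p of 0.255 for each. Neither pair passed without those libraries, while both r stayed positive. Within the 10 libraries of prefix J18, r was 0.90 for Fos with Egr1 and 0.69 for Fos with Npas4, with adjusted permutation p of 0.310 and 0.508.

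Fos with Arc (r = 0.65), Egr1 with Arc (0.62), Egr1 with Npas4 (0.62), Egr1 with Egr2 (0.61) and Npas4 with Nr4a1 (0.65) did not pass the adjusted test. Fosb had r of 0.56 with Egr2, 0.23 with Egr1, 0.05 with Fos, -0.09 with Npas4 and -0.53 with Egr3, and within prefix J18 r was 0.80 with Egr1, 0.78 with Egr2 and 0.61 with Fos, none of them past the adjusted test. Without treated Nj pup 4, r of Fosb over the other libraries was 0.17 with Egr2 and -0.20 with Egr1. Treated Nj pup 4 was the highest library of its group for Fos, Fosb, Junb, Egr1, Egr2, Arc and Npas4, and without it 34 of 45 pairs were positive, with a median r of 0.27 and 0 pairs past the test. Of 50 relations of the 10 genes with summed markers of choroid plexus, meninges, endothelium and pericytes or microglia, or with read depth, 0 passed the adjusted permutation test, and the lowest unadjusted p was 0.0589, for Fosb with meninges (r = 0.44).

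**Figure D3:**
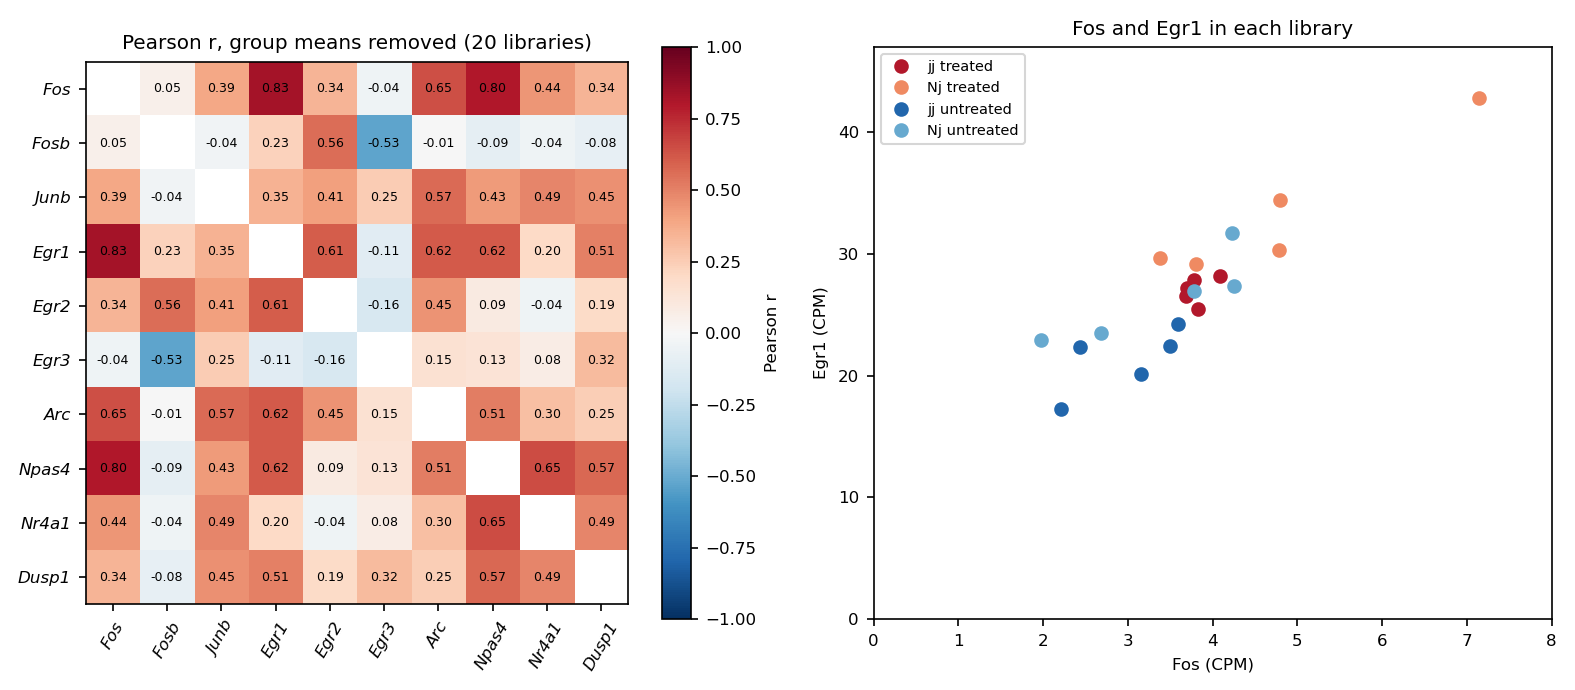
Left, Pearson r of log2 CPM between the 10 genes over 20 libraries after removing group means (red positive, blue negative). Right, Fos against Egr1 in CPM for each library, coloured by group, where Egr1 is higher in libraries with more Fos and treated Nj pup 4 is at the upper right with 7.15 and 42.8 CPM.

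Outside the 10, the genes whose levels followed them most closely, by mean r of group-centred log2 CPM over the 20 libraries, were Sik3 (0.54), Rnf10 (0.48), Cdh22 (0.47), Neurl1 (0.47), Ttyh2 (0.47), Sncb (0.46), Pacsin1 (0.46) and Hey1 (0.46). Sik3 encodes a salt-inducible kinase, and its r with single genes ran from 0.10 to 0.87. Without treated Nj pup 4 its mean r was 0.49. These are descriptions with no test. Sik3 itself did not pass under light (log2 -0.03, edgeR adjusted p = 0.621). Of the others, Pacsin1 (0.20, adjusted p = 0.0251) and Sncb (0.13, adjusted p = 0.0481) passed and the rest did not, where 10.1% of all genes passed.

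Other genes of the same response were then followed under light, averaged over genotypes, where 10.1% of all genes passed. Their calls went both ways. Of 8 AP-1 relatives tested, 0 rose and 1 fell, with a median log2 difference of -0.09. Fosl2, a Fos family member, fell to 13.0 ± 2.00 CPM in treated jj and 13.3 ± 1.75 in treated Nj pups, against 16.96 ± 1.60 in untreated jj and 16.6 ± 2.02 in untreated Nj pups (SD, n = 5 each). Its log2 fold change was -0.35 ± 0.08 (SE; edgeR, adjusted p = 0.00626). Fosb and Fosl2, from the same gene family, thus moved in opposite directions.

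Of 28 other rapid response genes tested, 4 rose and 1 fell, against 10.1% of all genes passing, with a median of -0.06. Egr4, the fourth EGR gene, rose to 8.04 ± 0.889 CPM in treated jj and 6.68 ± 0.557 in treated Nj pups, against 5.52 ± 0.828 in untreated jj and 6.11 ± 0.857 in untreated Nj pups (log2 0.34, edgeR adjusted p = 0.0113). Rgs2, a regulator of G-protein signalling, rose to 24.5 ± 2.90 CPM in treated jj and 24.2 ± 3.32 in treated Nj pups, against 20.7 ± 1.77 in untreated jj and 20.5 ± 2.14 in untreated Nj pups (log2 0.24, adjusted p = 0.0247). Nr4a3, a close relative of Nr4a1, fell to 129 ± 11.8 CPM in treated jj and 133 ± 22.5 in treated Nj pups, against 146 ± 13.0 in untreated jj and 161 ± 9.12 in untreated Nj pups (log2 -0.23, adjusted p = 0.0325). Ptgs2 (0.30, adjusted p = 0.0387), which encodes the inducible cyclooxygenase, and Fbxo33 (0.17, adjusted p = 0.0409), an F-box gene, were named after their values were seen. Ptgs2 passed in 8, Fbxo33 in 10 and Nr4a3 in 10 of 20 fits that left out 1 library each.

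Of 14 feedback inhibitors of MAP kinases and EGR factors, 0 rose and 1 fell, against 10.1% of all genes passing, with a median of 0.03. Dusp4, a nuclear MAP kinase phosphatase related to Dusp1, fell to 124 ± 8.83 CPM in treated jj and 128 ± 8.92 in treated Nj pups, against 148 ± 15.02 in untreated jj and 161 ± 11.1 in untreated Nj pups. Its log2 fold change was -0.30 ± 0.05 (SE; edgeR, adjusted p = 0.000602), and it passed in Nj pups alone as well (-0.33, adjusted p = 0.00925). Of 20 late response and synaptic effector genes, 1 rose and 0 fell, against the same 10.1%. Estimates were positive for 18 of the 20, against 50.35% of all genes, with a median of 0.09. Adcyap1, which encodes the neuropeptide PACAP, rose to 20.8 ± 2.41 CPM in treated jj and 22.3 ± 2.41 in treated Nj pups, against 18.1 ± 1.79 in untreated jj and 17.3 ± 1.42 in untreated Nj pups (log2 0.28, adjusted p = 0.00657).

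Of 32 upstream receptors, kinases and transcription factors tested, 2 rose and 1 fell, against 10.1% of all genes passing, with a median of 0.01. Map2k1, a kinase of the MAP kinase cascade, rose to 130 ± 4.94 CPM in treated jj and 133 ± 4.34 in treated Nj pups, against 117 ± 8.89 in untreated jj and 118 ± 9.16 in untreated Nj pups (log2 0.16, edgeR adjusted p = 0.00934). Camk2a, the calcium-dependent kinase abundant at excitatory synapses, rose to 405 ± 22.7 CPM in treated jj and 400.4 ± 13.5 in treated Nj pups, against 361 ± 11.9 in untreated jj and 354 ± 44.8 in untreated Nj pups (log2 0.17, adjusted p = 0.0151). Cacna1c, an L-type calcium channel subunit, fell by 0.14 on the log2 scale (adjusted p = 0.0270) and passed in 13 of 20 fits that left out 1 library each.

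Of 9 heat shock genes tested 0 passed in edgeR and 0 in DESeq2, and 3 had an unadjusted p under 0.05 in edgeR, against 24.6% of all genes. Hspe1 (log2 0.10, adjusted p = 0.0927) and Hspd1 (0.09, adjusted p = 0.145), mitochondrial chaperones, had the lowest p. Of 10 glucocorticoid targets 1 rose and 1 fell, with a median of -0.03. Klf9, a transcription factor induced by glucocorticoid and thyroid hormone, rose to 54.0 ± 4.56 CPM in treated jj and 53.8 ± 3.49 in treated Nj pups, against 44.0 ± 2.52 in untreated jj and 39.3 ± 3.79 in untreated Nj pups (log2 0.37, adjusted p = 8.2e-05). Ddit4, an inhibitor of mTOR signalling, fell by 0.14 on the log2 scale (adjusted p = 0.0409) and passed in 9 of 20 fits that left out 1 library each. With the 7 libraries rich in Ttr left out, 424 of all genes passed, against 1541 with them. Fosl2 (adjusted p = 0.0433), Rgs2 (0.0459), Adcyap1 (0.0299) and Klf9 (0.0110) still passed in that fit. The other 9 named genes did not: Egr4 (0.212), Nr4a3 (0.246), Ptgs2 (0.214), Fbxo33 (0.325), Dusp4 (0.0573), Map2k1 (0.101), Camk2a (0.0615), Cacna1c (0.314) and Ddit4 (0.0775). Over the 7 lists, edgeR passed 13 of 121 genes under light averaged over genotypes, against 10.1% of all genes, a share near the background, and DESeq2 passed 18. For genotype averaged over treatments edgeR and DESeq2 passed 0 of 121, and 15 had an unadjusted p under 0.05, against 11.2% of all genes.

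**Figure D4:**
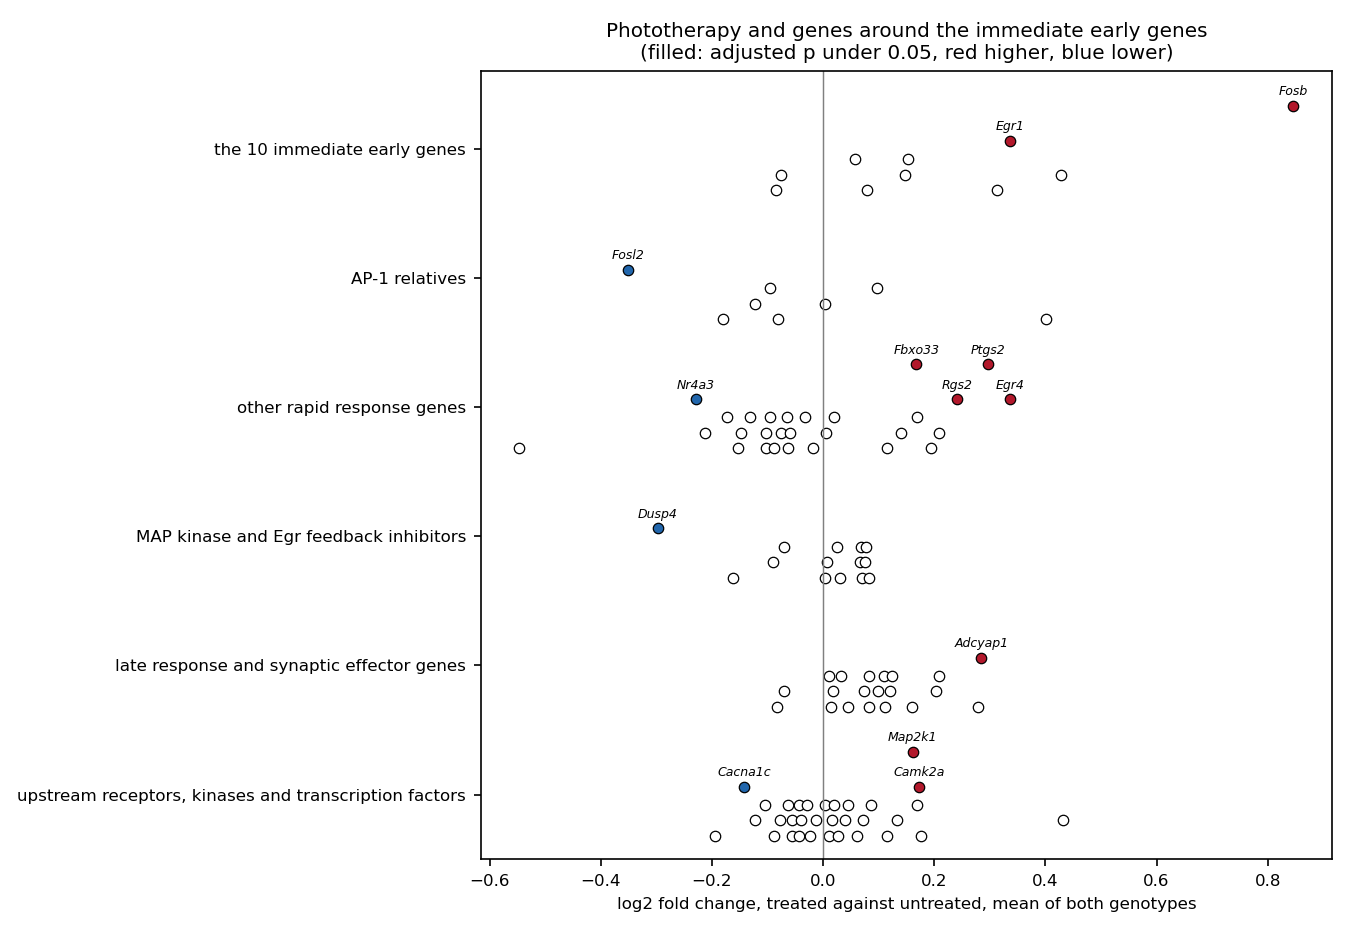
Log2 fold change under phototherapy, averaged over genotypes, of the 10 immediate early genes and of the genes of 5 related lists (each point is 1 gene, with vertical position within a list carrying no value). Filled points passed an adjusted p of 0.05, red higher and blue lower in treated pups, with Fosb at 0.85 and Fosl2 at -0.35 as the outermost of them.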

How the data were processed

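PolyA RNA of 1 hippocampal lobe from each of 20 pups was measured by Illumina TruSeq RNA-seq. The deposited values are raw read counts per rat Ensembl gene, with no normalisation, made by the authors. Per the submitters' processing notes, FastQC, TopHat2 2.0.13, Subread and edgeR were used. The notes name a mouse build although the identifiers are those of rat, so the rat build and the strand setting of the counting are not given in the sources used here, and reads of overlapping antisense genes cannot be told apart. Genes were filtered by group with filterByExpr, scaled by TMM and fitted with edgeR 4.0.16 (limma 3.58.1, R 4.3.3) in 1 robust quasi-likelihood model of all 20 libraries with 4 group means. The 7 contrasts were light in each genotype, genotype in each treatment, both averages and the interaction, with two-sided tests adjusted by Benjamini-Hochberg over 15272 genes at 0.05. CPM ranges lie apart where no value of 1 group reaches the other. Correlations used log2 CPM with a prior count of 2, group means removed, and 100000 permutations within groups. DESeq2 1.42.0 was the second tool. The pipeline was tested on simulated data. The alternatives were other scaling, count filters, quasi-likelihood estimates, tools and choices of libraries. The members and lists were chosen with earlier results of these data known. From each list, up to 3 genes passing in any contrast were named by lowest p, or the 2 of lowest p where none passed. Genes followed for likeness were the 8 with a symbol and an average log2 CPM of at least 1 that had the highest mean r. Listed genes missing from the table were not analysed here. A listed gene is not reported here by name, though counts include it. Replicate numbers only name pups.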

Additional observations from a re-analysis of the deposited data

Results flagged for a closer look

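In each group of 5 pups, the library farthest from its nearest neighbour was compared with Dixon's 95% critical value of 0.71. Of 40 such tests over the 10 genes, 6 passed it, and chance flags about 1 in 20. Junb stood high in untreated Nj pup 2 (21.07 CPM) and in treated Nj pup 4 (19.19 CPM). Egr2 stood high in treated Nj pup 4 (8.096 CPM), the pup that was also highest of its group for Fos, Fosb, Egr1, Arc and Npas4. Egr3 stood low in untreated jj pup 1 (38.74 CPM). Nr4a1 stood high in untreated jj pup 3 (13.82 CPM) and low in untreated Nj pup 1 (10.11 CPM).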

How the results depend on the processing

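Other size factors, testing all genes, testing those with a mean count of 10 or more and the newer quasi-likelihood estimates kept every count of calls within 1.5 times its value and every gene's direction. DESeq2 passed 271 genes for light in jj and 1009 in Nj pups, 2 for genotype in treated and 1 in untreated pups, 1 immediate early gene for light in Nj, and gave no adjusted p for 6 gene values. A fit of the compared groups alone passed 3 genes for light in jj pups. With untreated Nj pups of prefix J15 alone, 72 genes passed for light in jj, Egr2 (0.077) and Junb (0.056) reversed for genotype in untreated pups and Npas4 (-0.10) for light in Nj, and Arc passed for light averaged (0.37). Without the Ttr-rich libraries, 424 genes passed for light averaged, 0 in jj and 112 in Nj, 0 immediate early genes passed, and these reversed: Egr2 for light in jj (-0.085), Npas4 for light in Nj (-0.096), Egr3 (-0.0034) and Fosb (0.12) for genotype in untreated pups, and Junb for genotype averaged (-0.046). The causes were not tested beyond the fewer samples. Leaving out 1 library at a time gave 1020 to 1697 genes for light averaged, 152 (without untreated Nj pup 4) to 1070 (without untreated jj pup 3) in Nj, 0 (without untreated jj pup 4) to 75 (without untreated Nj pup 2) in jj, and 0 to 1 for genotype in treated pups, genotype in untreated pups and the interaction. Immediate early genes numbered 2 to 4 for light averaged and 0 to 2 in Nj. Signs turned among these fits for light in Nj in Junb (-0.023 to 0.14), Egr2 (-0.11 to 0.42) and Npas4 (-0.15 to 0.46), for light in jj in Egr2 (-0.0091 to 0.12), for light averaged in Egr2 (-0.037 to 0.23) and Npas4 (-0.19 to 0.12), for genotype in untreated pups in Fosb (-0.13 to 0.058), Junb (-0.10 to 0.093), Egr2 (-0.18 to 0.037) and Egr3 (-0.0021 to 0.073), in treated pups in Fosb (-0.23 to 0.20) and Egr2 (-0.48 to 0.051), and for genotype averaged in Fosb (-0.13 to 0.086) and Junb (-0.028 to 0.071). Interaction estimates changed sign in 42 of 270 values, with 0 passing. Of the pair correlations, 0 passed in prefix J18, without the 2 farthest libraries, and without treated Nj pup 4 (chosen after seeing the data), against 12 with group means kept. No paired analysis was possible because the replicate numbers were given in accession order and the labels link no pups across groups. Fosb and Npas4, at 8 to 37 and 12 to 83 reads per library, are the genes that depth limits most.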
